A study of Homo sapiens with 8 samples.

Results

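The genes described here encode the core of the pre-mRNA splicing machinery that chooses and defines splice sites: the serine/arginine-rich SRSF proteins, the heterogeneous nuclear ribonucleoproteins (HNRNP), the SF3A and SF3B subunits of the U2 particle, and the U2AF heterodimer. They were chosen by symbol from the count table, with the families' pseudogene symbols (a P followed by digits) left out. This gave 48 of 60622 genes: 12 SRSF, 25 HNRNP, 3 SF3A, 6 SF3B and 2 U2AF genes. Introns are removed by the spliceosome after U2AF has bound the polypyrimidine tract and the AG at an intron's end and has brought in the U2 particle, whose SF3A and SF3B proteins clamp it on the branch point. SR proteins mostly bind exonic enhancers and recruit this machinery, whereas hnRNP proteins coat pre-mRNA and often silence or mask sites, so the balance between both families sets many alternative exons. In prostate cancer some of these factors are known for their part in producing androgen receptor splice variants, and SRSF1 is known as a proto-oncogene.

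Poly(A) RNA-seq was done on 2 human prostate cancer lines, LNCaP, which depends on androgen receptor signalling, and PC3, which grows without it. In each line cells overexpressing miR-375 were set against control cells, with 2 libraries in each of the 4 groups: LNCaP miR-375, LNCaP control, PC3 miR-375 and PC3 control. LNCaP grew with 10% and PC3 with 20% fetal bovine serum, so line and serum cannot be told apart. The means and duration of the overexpression, what the controls received and the number of separate cultures behind a group are not stated in the labels. The p-values therefore cover only differences among these libraries, possibly technical ones.

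The libraries held from 33973861 to 41890528 counts. Each of the 7 LNCaP markers, among them KLK3 and KLK2, was higher in all LNCaP libraries, and each of the 7 PC3 markers, among them FOSL1 and CAV1, in all PC3 libraries. Levels are given below as CPM, a count scaled to the library's size and by TMM (edgeR's trimmed mean of M-values), first library 1 and then library 2 of a group. A change is the log2 fold change of miR-375 over control with its standard error (SE), and "rose" or "fell" means that edgeR's quasi-likelihood test gave a Benjamini-Hochberg adjusted p under 0.05 over the 21066 genes tested. MTDH, YAP1 and SEC23A, reported targets of miR-375, checked the labels, and each stood lower with miR-375 in both lines without overlap. SEC23A had 82.3 and 69.9 CPM in LNCaP with miR-375, against 187 and 190.1 CPM in LNCaP controls. In PC3 SEC23A had 119 and 119 CPM with miR-375, against 239 and 232 CPM in controls. MIR375 itself had 0 counts in every library, which checks nothing, since poly(A) libraries do not capture the mature microRNA. Markers of leukocytes stayed at or under 1.00 CPM in every library.

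The sequence of the overexpressed microRNA is shown because target sites are read from it. Mature miR-375 is encoded at chr2:219001648-219001669 on the minus strand (GRCh38.p14, RefSeq), and its seed, bases 2 to 8, is in capitals.
hsa-miR-375-3p: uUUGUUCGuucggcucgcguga
The seed pairs with the letters CGAACAA. Of the 44 splicing factor genes tested 43 have an annotated 3′ untranslated region, all but HNRNPCL1. None of the 43 held these letters there, against 165 (1.11%) of the 14865 tested genes with such a region. A looser match, GAACAAA, which pairs with bases 2 to 7 and has an A opposite base 1, was looked up after seeing this and lay in 6 of the 43 genes (14.0%) and in 2374 of all 14865 (16.0%). The 6 genes were HNRNPA0, HNRNPD, HNRNPDL, HNRNPR, SRSF7 and SRSF8. For 4 of them 1 site each follows, with 1 each of the reported targets YAP1 and SEC23A. HNRNPR and YAP1 each hold another match, which is not shown. The sites are sense-strand letters with the match in capitals, so that the shared letters and the unlike flanks can be compared.
HNRNPD: gtgctttttaGAACAAAtctggataaa
HNRNPR: ttcctggaaaGAACAAAatctacaaat
SRSF7: tgcagagattGAACAAAtaa
SRSF8: ttgtcctgaaGAACAAAtggctgtcca
YAP1: agaaaaagatGAACAAAcgtccagcaa
SEC23A: agagcaataaGAACAAAtttattttgc
The SRSF7 site lies at the end of the transcript, so fewer bases follow it. The HNRNPD site is at chr4:82353510-82353536 on the minus strand, the HNRNPR site at chr1:23308396-23308422 on the minus strand, the SRSF7 site at chr2:38743599-38743618 on the minus strand and the SRSF8 site at chr11:95068769-95068795 on the plus strand. The YAP1 site is at chr11:102230038-102230064 on the plus strand and the SEC23A site at chr14:39033035-39033061 on the minus strand (all GRCh38, GENCODE 29). The 6 genes with the looser match had a median log2 change of -0.38 in LNCaP and -0.33 in PC3, and the other 37 had -0.27 in LNCaP and -0.21 in PC3. Over all tested genes with such a region the medians were -0.12 with and 0 without the match in LNCaP, and -0.065 with and 0.025 without it in PC3. Genes with the match also had longer untranslated regions, with a median of 2745 against 1020.0 bases among the splicing factors and 3059.5 against 1013 bases among all genes. A match of letters is a description and not a measured site.

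Splicing factor transcripts were lower with miR-375 in both lines, mostly by a modest amount. In LNCaP 35 of the 44 genes tested fell and 2 rose, where 18.7% of all tested genes fell and 13.9% rose. In PC3 34 fell and 1 rose, against 20.8% of all tested genes falling and 22.2% rising. The median log2 change was -0.31 in LNCaP and -0.25 in PC3, beside medians over all tested genes of 0 in LNCaP and 0.022 in PC3. In both lines 32 of the 44 fell, where 10.5% of all tested genes did, and 0 rose, where 7.10% did. Together the 48 genes took 1.43% and 1.45% of all counts in LNCaP with miR-375, against 1.69% and 1.71% in LNCaP controls. The share was 0.925% and 0.924% in PC3 with miR-375, against 1.04% and 1.05% in PC3 controls. The shares did not overlap between groups in either line. For every member named below as having risen or fallen, both libraries with miR-375 lay on the same side of both controls. With 2 libraries a group this adds little. Members that did not pass stood apart as well, such as SRSF8 and SF3B5 in LNCaP and U2AF1 in PC3. The share of all tested genes that stood apart was not counted. In bulk RNA, fewer cells of a type and less RNA per cell cannot be told apart.

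The members' changes were nearly all under 2-fold, as were those of most tested genes. Of the members called in LNCaP none reached a 2-fold change. There 507 genes rose and 465 fell by at least 2-fold, together 4.61% of all tested genes. In PC3 HNRNPCL1, a gene with almost no counts, was the only one of the 44 past 2-fold, where 10.6% of all tested genes were called past it. With total counts in place of TMM the median of all tested genes was 0.12 in LNCaP and 0.098 in PC3. On that scale 26 members fell and 4 rose in LNCaP, and 28 fell and 3 rose in PC3, and no called member changed direction. Of the falls that stayed called on that scale, those of HNRNPC, HNRNPH1, HNRNPK, HNRNPL, HNRNPR, HNRNPUL1, SF3A3 and SRSF3 in LNCaP were over 1.5 times smaller, at log2 -0.11 to -0.23, as were those of HNRNPA1, HNRNPC, SF3A1, SF3B3 and SRSF11 in PC3, at -0.10 to -0.13, while the rise of HNRNPH2 in LNCaP was larger, at 0.26. Relative to the median of all genes, the members' median was -0.31 in LNCaP and -0.27 in PC3 with either scaling. That figure could hardly differ, since a change of scaling shifts all genes nearly alike, so it is no check of the falls. With miR-375 other marker groups moved too: the summed level of 7 LNCaP markers was 4360 to 4472 CPM in LNCaP with miR-375 and 5716 to 5738 CPM in LNCaP controls, and that of 7 PC3 markers was 1185 to 1218 CPM in PC3 with miR-375 and 2162 to 2188 CPM in PC3 controls. The 5 fibroblast markers summed to 368 to 389.7 CPM in PC3 with miR-375 and 138 to 144 CPM in PC3 controls, nearly all of it COL1A1, with DCN at 0 in both PC3 controls and under 1 CPM in PC3 with miR-375; in LNCaP they summed to 44.2 to 49.6 CPM with miR-375 and 41.1 to 49.0 CPM in controls. Their part in the fall of the splicing factors was not tested.

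**Figure D1:**
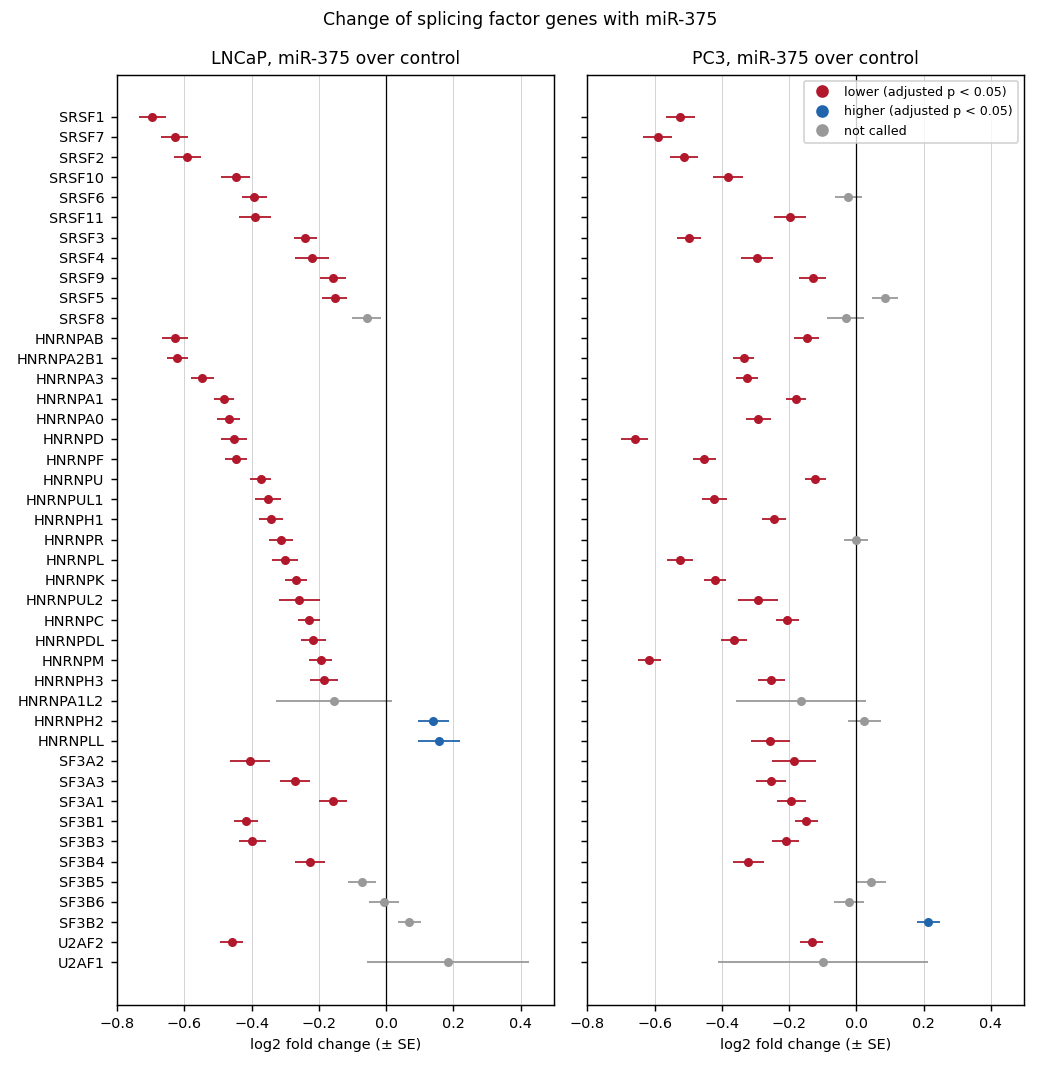
Log2 fold change of miR-375 over control (horizontal axis, bars are ± SE) for each tested splicing factor gene, LNCaP on the left and PC3 on the right, grouped by family; HNRNPCL1 is not drawn. Red points fell, blue points rose and grey points did not pass the test; of the 44 genes tested 35 fell in LNCaP and 34 in PC3, and most points lie between 0 and -0.70.

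Among the SR proteins 10 of 11 tested genes fell in LNCaP and 8 of 11 in PC3, and none rose in either line. SRSF1 (chr17:58003360-58007346, GRCh38), the best studied SR protein, which helps the U1 particle onto 5′ splice sites, had 163 and 167 CPM in LNCaP with miR-375, against 265 and 269 CPM in LNCaP controls. In PC3 the levels of SRSF1 were lower throughout, with 66.9 and 66.6 CPM in PC3 with miR-375, against 98.8 and 93.0 CPM in PC3 controls. Its log2 change of -0.70 ± 0.041 in LNCaP was the largest fall of any member there, and that in PC3 was -0.52 ± 0.044 (edgeR adjusted p = 2.07e-16 in LNCaP and 1.53e-12 in PC3). SRSF7 (chr2:38743599-38751494), an SR protein with a zinc knuckle that also serves mRNA export, had 198 and 202 CPM in LNCaP with miR-375, against 309 and 309.5 CPM in LNCaP controls. It had 79.5 and 74.0 CPM in PC3 with miR-375, against 116 and 116 CPM in PC3 controls. Its log2 changes were -0.63 ± 0.040 in LNCaP and -0.59 ± 0.043 in PC3 (edgeR adjusted p = 1.41e-15 and 2.38e-14), and the log2 difference between the lines was -0.038 ± 0.058, which did not pass the test.

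SRSF2 (chr17:76734115-76737374), an SR protein that marks nuclear speckles and binds exonic enhancers, had 231 and 239 CPM in LNCaP with miR-375, against 354 and 355 CPM in LNCaP controls. In PC3 SRSF2 had 85.2 and 84.9 CPM with miR-375, against 126 and 117 CPM in controls. It fell, with a log2 change of -0.59 ± 0.039 in LNCaP and -0.51 ± 0.042 in PC3 (edgeR adjusted p = 6.00e-15 and 8.34e-13). SRSF10, which represses splicing once dephosphorylated, had 103 and 103 CPM in LNCaP with miR-375, against 137 and 143 CPM in LNCaP controls. In PC3 SRSF10 had 88.4 and 87.0 CPM with miR-375, against 115 and 113 CPM in controls. In each line both libraries with miR-375 lay below both controls for these genes, and SRSF10 changed by -0.45 ± 0.044 in LNCaP and -0.38 ± 0.045 in PC3. SRSF11, an SR protein reported to bind U2AF2, had 107 and 118 CPM in LNCaP with miR-375, against 140.3 and 154 CPM in LNCaP controls. In PC3 SRSF11 had 123 and 124 CPM with miR-375, against 142 and 140.2 CPM in controls. SRSF11 fell, with log2 changes of -0.39 ± 0.048 in LNCaP and -0.20 ± 0.047 in PC3.

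SRSF3, the smallest SR protein, which links splicing to polyadenylation and export, had 676 and 680.1 CPM in LNCaP with miR-375, against 799 and 802 CPM in LNCaP controls, a log2 change of -0.24 ± 0.033. Its level was lower in PC3, where it had 187 and 177 CPM in PC3 with miR-375, against 259 and 254 CPM in PC3 controls, a change of -0.50 ± 0.035. SRSF4, one of the larger SR proteins, was higher in PC3 than in LNCaP: it had 60.7 and 59.0 CPM in LNCaP with miR-375, against 70.9 and 68.5 CPM in LNCaP controls. In PC3 SRSF4 had 94.9 and 92.0 CPM with miR-375, against 115 and 114 CPM in controls. Its log2 change was -0.22 ± 0.051 in LNCaP and -0.30 ± 0.048 in PC3. SRSF9 moved least of the SR genes that fell in both lines, with 158 and 160.2 CPM in LNCaP with miR-375, against 181 and 175 CPM in LNCaP controls. In PC3 SRSF9 had 160.2 and 158 CPM with miR-375, against 172 and 176 CPM in controls. For SRSF9 the log2 change was -0.16 ± 0.040 in LNCaP and -0.13 ± 0.039 in PC3.

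SRSF6 and SRSF5 fell in LNCaP and did not pass the test in PC3. SRSF6, an SR protein active in alternative splicing of many exons, had 290.3 and 298 CPM in LNCaP with miR-375, against 391 and 380.3 CPM in LNCaP controls, whereas the PC3 groups overlapped, with 101 and 97.9 CPM in PC3 with miR-375, against 103 and 99.5 CPM in PC3 controls. The log2 change of SRSF6 was -0.39 ± 0.037 in LNCaP and -0.024 ± 0.040 in PC3 (edgeR adjusted p = 5.52e-11 and 0.685). SRSF5 had 304 and 302 CPM in LNCaP with miR-375, against 343 and 331 CPM in LNCaP controls, a log2 change of -0.15 ± 0.039. In PC3 SRSF5 stood slightly higher with miR-375, at 243 and 241 CPM in PC3 with miR-375, against 238 and 218 CPM in PC3 controls, but a change of 0.086 ± 0.039 did not pass (edgeR adjusted p = 0.0750). SRSF8, a copy of SRSF2 that arose by retrotransposition, had 245 and 240.2 CPM in LNCaP with miR-375, against 248 and 256 CPM in LNCaP controls. In PC3 SRSF8 had 33.0 and 36.6 CPM with miR-375, against 37.0 and 34.2 CPM in controls. With log2 changes of -0.057 ± 0.043 in LNCaP and -0.032 ± 0.055 in PC3 it was the SR gene that passed in neither line. SRSF12 had at most 8 counts in a library and was not tested.

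Several of the smaller falls were not called in every setting. A fit without a library also set the scaling anew. Without LNCaP miR-375 library 1 the members' median log2 change in LNCaP was -0.26 and without library 2 -0.23, against -0.31 with all libraries. Without LNCaP control library 1 it was -0.27 and without library 2 -0.23. A call lost without a library is therefore not shown to rest on that library. In LNCaP total-count scaling ended the calls of SRSF4 (log2 -0.098, edgeR adjusted p = 0.147), SRSF5 (-0.031, 0.591) and SRSF9 (-0.036, 0.545). Leaving out the filter on low counts also ended those of SRSF5 (log2 -0.087, edgeR adjusted p = 0.139) and SRSF9 (-0.091, 0.175). The call of SRSF4 also ended without LNCaP miR-375 library 2 (log2 -0.15, edgeR adjusted p = 0.0712) or LNCaP control library 1 (log2 -0.14, edgeR adjusted p = 0.0935). That of SRSF5 ended without LNCaP miR-375 library 1 (log2 -0.11, edgeR adjusted p = 0.0807), LNCaP miR-375 library 2 (log2 -0.10, edgeR adjusted p = 0.107) or LNCaP control library 1 (log2 -0.073, edgeR adjusted p = 0.278). That of SRSF9 ended without LNCaP miR-375 library 1 (log2 -0.10, edgeR adjusted p = 0.136), LNCaP miR-375 library 2 (log2 -0.12, edgeR adjusted p = 0.0683) or LNCaP control library 1 (log2 -0.080, edgeR adjusted p = 0.249). In PC3 SRSF9 lost its call with total-count scaling (log2 -0.054, edgeR adjusted p = 0.289) and without PC3 miR-375 library 2 (log2 -0.12, edgeR adjusted p = 0.0599) or PC3 control library 2 (log2 -0.12, edgeR adjusted p = 0.0564). The falls of SRSF1, SRSF2, SRSF3, SRSF7, SRSF10 and SRSF11 in both lines and that of SRSF6 in LNCaP were called in all 16 settings tried.

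**Figure D2:**
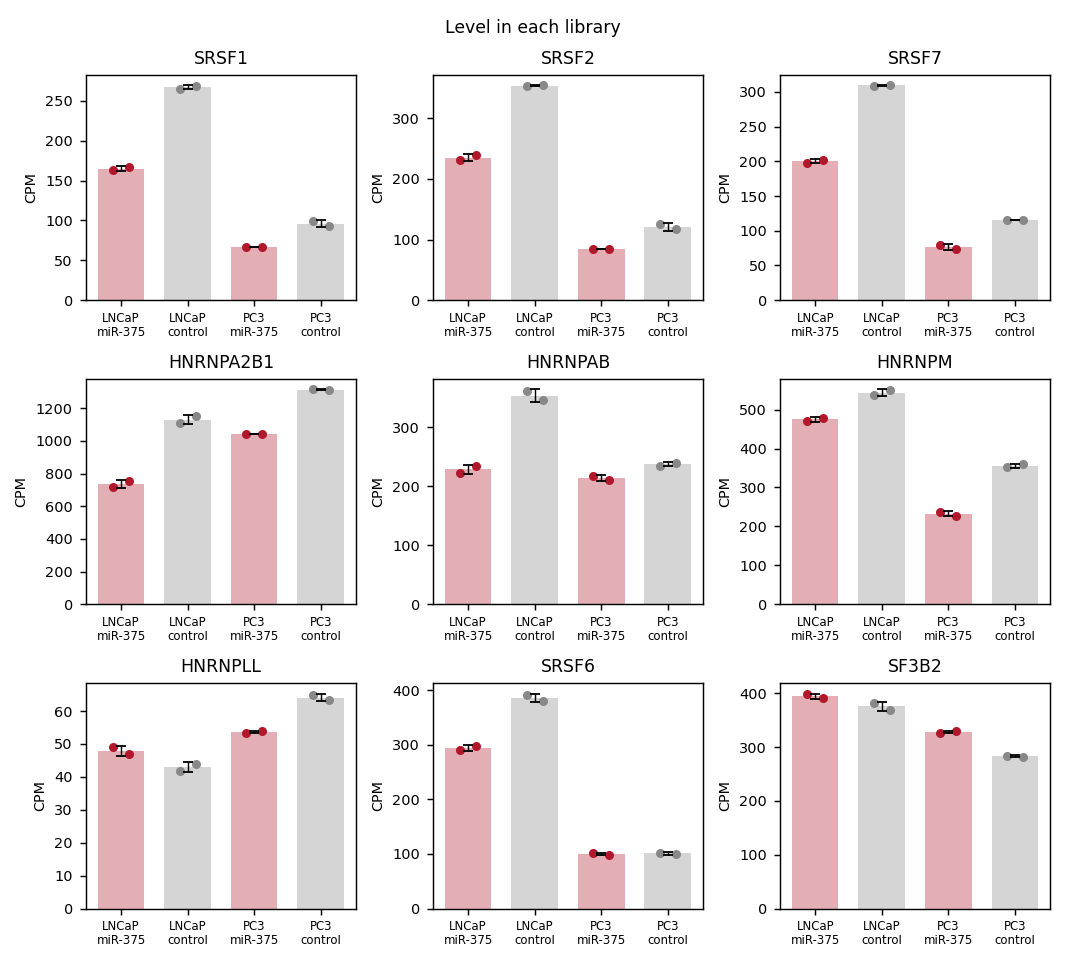
CPM (vertical axis) of 9 splicing factor genes in each library (points), with the group mean (bar) and SD (n = 2), miR-375 groups in red beside their controls in grey. SRSF1, SRSF2 and SRSF7 lie below their controls in both lines, HNRNPAB mainly in LNCaP and HNRNPM mainly in PC3, while HNRNPLL is above its controls in LNCaP and below them in PC3.

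Of the 22 hnRNP genes tested 18 fell and 2 rose in LNCaP, and 19 fell and none rose in PC3. HNRNPA1 (chr12:54280193-54287088), which binds silencers and often opposes SRSF1, had 1641 and 1674 CPM in LNCaP with miR-375, against 2329.9 and 2302 CPM in LNCaP controls. HNRNPA1 had 713 and 716 CPM in PC3 with miR-375, against 814 and 804 CPM in PC3 controls. It fell in both lines, with log2 changes of -0.48 ± 0.029 in LNCaP and -0.18 ± 0.030 in PC3 (edgeR adjusted p = 6.04e-16 and 3.92e-06). HNRNPA2B1 (chr7:26173057-26201529), its relative that also sorts RNAs for transport, had 717 and 753 CPM in LNCaP with miR-375, against 1109.9 and 1151 CPM in LNCaP controls. In PC3 HNRNPA2B1 had 1044 and 1042 CPM with miR-375, against 1315 and 1315 CPM in controls. The log2 change of HNRNPA2B1 was -0.62 ± 0.032 in LNCaP and -0.33 ± 0.032 in PC3 (edgeR adjusted p = 5.41e-18 and 2.61e-11), and its groups lay far apart in each line.

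The other genes of this A/B group fell too. HNRNPA3 had 346 and 345 CPM in LNCaP with miR-375, against 499.7 and 509 CPM in LNCaP controls. In PC3 HNRNPA3 had 357 and 358 CPM with miR-375, against 445 and 449 CPM in controls. For HNRNPA3 the log2 change was -0.55 ± 0.033 in LNCaP and -0.32 ± 0.033 in PC3. HNRNPA0, a single-exon relative, had 372 and 386 CPM in LNCaP with miR-375, against 524 and 525 CPM in LNCaP controls. In PC3 HNRNPA0 had 145 and 139 CPM with miR-375, against 173 and 175 CPM in controls. For HNRNPA0 the log2 change was -0.47 ± 0.035 in LNCaP and -0.29 ± 0.037 in PC3. Both stood lower with miR-375 in each line without overlap. HNRNPAB, a relative that binds single-stranded nucleic acids and takes part in mRNA transport, had 223 and 234 CPM in LNCaP with miR-375, against 361 and 346 CPM in LNCaP controls, a change of -0.63 ± 0.038 and one of the largest falls in that line. It had 217 and 211 CPM in PC3 with miR-375, against 235 and 240.1 CPM in PC3 controls, a change of -0.15 ± 0.038 that was called with TMM but not with total-count scaling (log2 -0.072, edgeR adjusted p = 0.122).

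HNRNPD (chr4:82352498-82374503), which binds AU-rich elements and speeds the decay of many mRNAs, showed the largest fall in PC3 after HNRNPCL1. HNRNPD had 170.1 and 164 CPM in PC3 with miR-375, against 252 and 276 CPM in PC3 controls, a log2 change of -0.66 ± 0.040. It had 368 and 381 CPM in LNCaP with miR-375, against 523 and 502 CPM in LNCaP controls, a change of -0.45 ± 0.039 (edgeR adjusted p = 4.44e-12 in LNCaP and 2.08e-16 in PC3). HNRNPDL, its close relative, had 297 and 318 CPM in LNCaP with miR-375, against 363 and 351 CPM in LNCaP controls. In PC3 HNRNPDL had 156 and 163 CPM with miR-375, against 206 and 204 CPM in controls. Its changes were -0.22 ± 0.038 in LNCaP and -0.36 ± 0.039 in PC3, both falls, although total-count scaling ended the call in LNCaP (log2 -0.094, edgeR adjusted p = 0.0531). Without LNCaP miR-375 library 1 that change of HNRNPDL was -0.12 and without LNCaP control library 1 it was -0.14, both still called. HNRNPC, which binds uridine tracts and packages nascent pre-mRNA, had 750.2 and 749.6 CPM in LNCaP with miR-375, against 865 and 893 CPM in LNCaP controls. In PC3 HNRNPC had 492 and 510.2 CPM with miR-375, against 562 and 593 CPM in controls. It fell, with log2 changes of -0.23 ± 0.033 in LNCaP and -0.21 ± 0.034 in PC3.

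HNRNPF and the HNRNPH genes encode proteins that bind runs of guanines, and they did not move as a block. HNRNPF (chr10:43385617-43409166) had 594 and 579 CPM in LNCaP with miR-375, against 807 and 789.8 CPM in LNCaP controls. In PC3 HNRNPF had 266 and 258 CPM with miR-375, against 354 and 363 CPM in controls. Its log2 changes of -0.45 ± 0.033 in LNCaP and -0.45 ± 0.034 in PC3 were close in size. HNRNPH1 had 349 and 336 CPM in LNCaP with miR-375, against 426 and 443 CPM in LNCaP controls. In PC3 HNRNPH1 had 257 and 258 CPM with miR-375, against 302 and 309 CPM in controls. For HNRNPH1 the log2 change was -0.34 ± 0.035 in LNCaP and -0.25 ± 0.036 in PC3. HNRNPH3 had 133 and 127 CPM in LNCaP with miR-375, against 145 and 149 CPM in LNCaP controls. In PC3 HNRNPH3 had 152 and 158 CPM with miR-375, against 185 and 183 CPM in controls. HNRNPH3 fell, with log2 changes of -0.18 ± 0.042 in LNCaP and -0.25 ± 0.041 in PC3, but its LNCaP call ended with total-count scaling (log2 -0.062, edgeR adjusted p = 0.282), with no low-count filter (log2 -0.12, edgeR adjusted p = 0.0576) and without LNCaP miR-375 library 2 (log2 -0.11, edgeR adjusted p = 0.135) or LNCaP control library 2 (log2 -0.11, edgeR adjusted p = 0.104). HNRNPH2, an X-linked relative of HNRNPH1, rose in LNCaP with 170.2 and 159.6 CPM in LNCaP with miR-375, against 149 and 150.3 CPM in LNCaP controls, a change of 0.14 ± 0.046 (edgeR adjusted p = 0.0163). That call ended without LNCaP miR-375 library 1 (log2 0.14, edgeR adjusted p = 0.0624) and the change was 0.23 without LNCaP miR-375 library 2. In PC3 the groups of HNRNPH2 overlapped, with 91.4 and 84.6 CPM in PC3 with miR-375, against 83.6 and 89.5 CPM in PC3 controls and a change of 0.024 ± 0.048.

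HNRNPK (chr9:83968083-83980616), a KH-domain protein that binds runs of cytosines, had 971 and 927 CPM in LNCaP with miR-375, against 1133 and 1151 CPM in LNCaP controls. In PC3 HNRNPK had 457 and 461 CPM with miR-375, against 600.3 and 628 CPM in controls. It fell, with log2 changes of -0.27 ± 0.033 in LNCaP and -0.42 ± 0.033 in PC3. HNRNPL, which binds CA repeats, had 237 and 242 CPM in LNCaP with miR-375, against 291 and 298 CPM in LNCaP controls. In PC3 HNRNPL had 129 and 124 CPM with miR-375, against 179 and 185 CPM in controls. For HNRNPL the log2 change was -0.30 ± 0.038 in LNCaP and -0.52 ± 0.039 in PC3. HNRNPM (chr19:8444767-8489114), which binds GU-rich sites, showed a small fall in LNCaP, with 471 and 479 CPM in LNCaP with miR-375, against 537 and 549 CPM in LNCaP controls and a change of -0.19 ± 0.034. In PC3 HNRNPM was among the members that fell most, with 237 and 228 CPM in PC3 with miR-375, against 352 and 359 CPM in PC3 controls and a change of -0.62 ± 0.035 (edgeR adjusted p = 1.62e-05 in LNCaP and 2.64e-17 in PC3). The LNCaP call of HNRNPM ended with total-count scaling (log2 -0.072, edgeR adjusted p = 0.103), and without LNCaP control library 2 its change was -0.13, still called.

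HNRNPLL moved in opposite directions. This relative of HNRNPL, known for silencing alternative exons of the leukocyte gene PTPRC, had 49.0 and 46.8 CPM in LNCaP with miR-375, against 41.9 and 44.0 CPM in LNCaP controls, a log2 change of 0.16 ± 0.062 (edgeR adjusted p = 0.0486). It had 53.5 and 53.9 CPM in PC3 with miR-375, against 64.9 and 63.3 CPM in PC3 controls, a change of -0.26 ± 0.059 (edgeR adjusted p = 0.000435). The fall in PC3 was called in all settings. The rise in LNCaP lay just inside the threshold: it was lost with limma-voom (adjusted p = 0.0526), with the replicate number as a block (edgeR adjusted p = 0.0642) and without LNCaP miR-375 library 1 (log2 0.17, edgeR adjusted p = 0.108) or LNCaP control library 1 (log2 0.18, edgeR adjusted p = 0.0894). It was larger with total-count scaling (0.28), without LNCaP miR-375 library 2 (0.24) and without LNCaP control library 2 (0.24).

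HNRNPU (chr1:244840638-244864560), a large protein that binds both RNA and chromatin, had 715 and 696 CPM in LNCaP with miR-375, against 898 and 929.6 CPM in LNCaP controls. In PC3 HNRNPU had 696 and 691 CPM with miR-375, against 754 and 755 CPM in controls. It fell, with log2 changes of -0.37 ± 0.032 in LNCaP and -0.12 ± 0.032 in PC3, and its PC3 call ended with total-count scaling (log2 -0.046, edgeR adjusted p = 0.254). HNRNPUL1, one of its relatives, had 149 and 143 CPM in LNCaP with miR-375, against 184 and 188 CPM in LNCaP controls. In PC3 HNRNPUL1 had 198 and 203 CPM with miR-375, against 269 and 269 CPM in controls. For HNRNPUL1 the log2 change was -0.35 ± 0.039 in LNCaP and -0.42 ± 0.038 in PC3. HNRNPUL2, the other relative, had 47.5 and 47.7 CPM in LNCaP with miR-375, against 54.4 and 59.4 CPM in LNCaP controls. In PC3 HNRNPUL2 had 50.4 and 51.3 CPM with miR-375, against 61.9 and 62.7 CPM in controls. Its log2 changes of -0.26 ± 0.061 and -0.29 ± 0.059 were both called, and the LNCaP call ended with total-count scaling (log2 -0.14, edgeR adjusted p = 0.0843) and without LNCaP control library 2 (log2 -0.14, edgeR adjusted p = 0.174). HNRNPR, an RNA-binding protein close to SYNCRIP, had 228 and 220.1 CPM in LNCaP with miR-375, against 276 and 280.2 CPM in LNCaP controls, a log2 change of -0.31 ± 0.036. HNRNPR had 265 and 261 CPM in PC3 with miR-375, against 264 and 263 CPM in PC3 controls, with overlapping groups and a change of -0.0019 ± 0.036.

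The remaining hnRNP symbols are gene copies with few counts. HNRNPA1L2, a retrotransposed copy of HNRNPA1, had 7.50 and 7.33 CPM in LNCaP with miR-375, against 8.88 and 7.64 CPM in LNCaP controls. In PC3 HNRNPA1L2 had 3.31 and 3.44 CPM with miR-375, against 3.24 and 4.33 CPM in controls, and passed in neither line. HNRNPCL1, an intronless relative of HNRNPC, had 0 and 0 counts in PC3 with miR-375, against 2 and 11 counts in PC3 controls. The pooled level of the PC3 controls was 4.64 times a floor of 3 counts over both miR-375 libraries. That ratio leaves out the counting error of the controls, so it is no lower bound. HNRNPCL1 fell in PC3 (edgeR adjusted p = 0.0112). The call ended without PC3 miR-375 library 1, PC3 miR-375 library 2 or PC3 control library 2. In LNCaP HNRNPCL1 had 14 and 11 counts with miR-375, against 10 and 21 counts in controls. HNRNPCL2, HNRNPCL3 and HNRNPCL4 reached at most 9, 6 and 6 counts in a library and were not tested. Reads of these copies can be shared with their parent genes, so their values are uncertain. In turn, pseudogene symbols of HNRNPA1 held 1.47% as many counts as HNRNPA1 and those of HNRNPA3 1.06% as many as HNRNPA3, and for the other parents the figure was at most 0.651%.

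The SF3A genes, whose products hold the U2 particle together, all fell in both lines. SF3A1 had 158 and 155 CPM in LNCaP with miR-375, against 171 and 178 CPM in LNCaP controls. In PC3 SF3A1 had 114 and 109.7 CPM with miR-375, against 127 and 129 CPM in controls. For SF3A1 the log2 change was -0.16 ± 0.042 in LNCaP and -0.19 ± 0.042 in PC3. SF3A2 had 77.2 and 86.0 CPM in LNCaP with miR-375, against 111 and 105 CPM in LNCaP controls. In PC3 SF3A2 had 36.5 and 41.0 CPM with miR-375, against 44.8 and 43.2 CPM in controls. For SF3A2 the log2 change was -0.40 ± 0.059 in LNCaP and -0.19 ± 0.064 in PC3. SF3A3 had 120.4 and 116 CPM in LNCaP with miR-375, against 145 and 140.0 CPM in LNCaP controls. In PC3 SF3A3 had 115 and 106 CPM with miR-375, against 132 and 131 CPM in controls. For SF3A3 the log2 change was -0.27 ± 0.045 in LNCaP and -0.25 ± 0.045 in PC3. In every case both libraries with miR-375 lay under both controls, though by little for SF3A1 in LNCaP and SF3A2 in PC3. The LNCaP call of SF3A1 ended with total-count scaling (log2 -0.037, edgeR adjusted p = 0.562), with no low-count filter (log2 -0.092, edgeR adjusted p = 0.189) and without LNCaP miR-375 library 1 (log2 -0.13, edgeR adjusted p = 0.0636), LNCaP miR-375 library 2 (log2 -0.096, edgeR adjusted p = 0.194) or LNCaP control library 2 (log2 -0.076, edgeR adjusted p = 0.321). The PC3 call of SF3A2 ended with total-count scaling (log2 -0.11, edgeR adjusted p = 0.182), with limma-voom (adjusted p = 0.0518) and without PC3 miR-375 library 1 (log2 -0.10, edgeR adjusted p = 0.323) or PC3 control library 1 (log2 -0.16, edgeR adjusted p = 0.120).

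Of the 6 SF3B genes 3 fell in both lines, and the other 3 did not. SF3B1 (chr2:197389784-197435091), the large subunit that encloses the branch point helix and is mutated in several cancers, had 216 and 215 CPM in LNCaP with miR-375, against 281 and 294 CPM in LNCaP controls. Its levels were higher in PC3, with 405 and 416 CPM in PC3 with miR-375, against 454 and 457 CPM in PC3 controls. It fell, with log2 changes of -0.42 ± 0.036 in LNCaP and -0.15 ± 0.035 in PC3 (edgeR adjusted p = 5.55e-12 and 0.000493), but not in PC3 with total-count scaling (log2 -0.073, edgeR adjusted p = 0.0886). SF3B3, a propeller protein that supports SF3B1, had 219 and 233 CPM in LNCaP with miR-375, against 287 and 309 CPM in LNCaP controls. In PC3 SF3B3 had 193 and 192 CPM with miR-375, against 219 and 226 CPM in controls. For SF3B3 the log2 change was -0.40 ± 0.040 in LNCaP and -0.21 ± 0.040 in PC3. SF3B4, which contacts pre-mRNA upstream of the branch point, had 144 and 147 CPM in LNCaP with miR-375, against 171 and 169.7 CPM in LNCaP controls. In PC3 SF3B4 had 68.4 and 64.3 CPM with miR-375, against 82.5 and 83.3 CPM in controls. For SF3B4 the log2 change was -0.23 ± 0.043 in LNCaP and -0.32 ± 0.046 in PC3, and the LNCaP call ended with total-count scaling (log2 -0.10, edgeR adjusted p = 0.0604).

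SF3B2 (chr11:66050729-66069308), the binding partner of SF3B4, rose in PC3, the only member to do so. It had 327 and 330.1 CPM in PC3 with miR-375, against 284 and 282 CPM in PC3 controls, a log2 change of 0.21 ± 0.035 (edgeR adjusted p = 2.73e-06) that was called in all settings. SF3B2 had 398 and 391 CPM in LNCaP with miR-375, against 382 and 369.9 CPM in LNCaP controls; these groups did not overlap either, but the change of 0.069 ± 0.034 did not pass (edgeR adjusted p = 0.132). SF3B5 and SF3B6, the small subunits, passed in neither line. SF3B5 had 180.1 and 186 CPM in LNCaP with miR-375, against 194 and 189.9 CPM in LNCaP controls. In PC3 SF3B5 had 64.1 and 62.7 CPM with miR-375, against 61.1 and 61.9 CPM in controls. For SF3B5 the log2 change was -0.071 ± 0.041 in LNCaP and 0.044 ± 0.046 in PC3. SF3B6, which lies beside the branch point adenosine, had 140.0 and 139 CPM in LNCaP with miR-375, against 142 and 138 CPM in LNCaP controls. In PC3 SF3B6 had 90.8 and 96.0 CPM with miR-375, against 96.3 and 93.5 CPM in controls. For SF3B6 the log2 change was -0.0061 ± 0.044 in LNCaP and -0.023 ± 0.045 in PC3.

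U2AF2 (chr19:55654146-55674715), the large U2AF subunit that binds the polypyrimidine tract, had 485 and 507 CPM in LNCaP with miR-375, against 687 and 677 CPM in LNCaP controls, a log2 change of -0.46 ± 0.034. It had 354 and 345 CPM in PC3 with miR-375, against 387 and 379 CPM in PC3 controls, a change of -0.13 ± 0.034 (edgeR adjusted p = 8.96e-14 in LNCaP and 0.00150 in PC3), and the PC3 call ended with total-count scaling (log2 -0.056, edgeR adjusted p = 0.185). U2AF1, the small subunit that reads the AG, is uncertain because the annotation holds a near-identical copy, U2AF1L5, with which reads can be shared. U2AF1 had 161 and 173 counts in LNCaP with miR-375, against 133 and 141 counts in LNCaP controls. In PC3 U2AF1 had 40 and 42 counts with miR-375, against 40 and 42 counts in controls. U2AF1L5 had 0 and 0 counts in LNCaP with miR-375, against 0 and 2 counts in LNCaP controls. In PC3 U2AF1L5 had 73 and 75 counts with miR-375, against 50 and 61 counts in controls. U2AF1 passed in neither line, at 0.18 ± 0.24 in LNCaP and -0.098 ± 0.31 in PC3. With both genes' counts summed, U2AF1 was at 0.17 in LNCaP and 0.15 in PC3, neither called, so that its direction in PC3 depends on this sum. The sum does not bring back any reads that were counted for neither copy.

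The size of the fall differed between the lines for many genes. The difference of effects, the LNCaP log2 change minus the PC3 log2 change, passed the test for 22 of 44 members: 7 positive and 15 negative, where 10.9% of all tested genes were positive and 15.6% negative. Its median was -0.027 over the members and -0.037 over all tested genes. The split moved with the processing: it was 7 positive and 10 negative with total-count scaling and with DESeq2, 10 and 8 without the low-count filter, and 10 and 10 with halved counts. Of the calls 4 positive and 8 negative held in all settings tried.

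The 8 lasting negative differences were genes that fell more in LNCaP. HNRNPAB had the largest, -0.48 ± 0.053 (edgeR adjusted p = 4.32e-09), followed by SRSF6 at -0.37 ± 0.055 (1.70e-06) and U2AF2 at -0.33 ± 0.048 (1.24e-06). HNRNPR, which fell in LNCaP and not past the threshold in PC3, had a difference of -0.31 ± 0.051 (edgeR adjusted p = 9.05e-06). HNRNPA1 at -0.30 ± 0.042, HNRNPA2B1 at -0.29 ± 0.045, SF3B1 at -0.27 ± 0.050 and HNRNPU at -0.25 ± 0.045 fell in both lines and more in LNCaP (edgeR adjusted p from 4.12e-07 to 6.24e-05). Fits without a library gave smaller differences for 3 of these. HNRNPA2B1 was at -0.18 without LNCaP miR-375 library 1 and -0.18 without LNCaP control library 2. SF3B1 was at -0.16 without LNCaP control library 2. HNRNPU was at -0.16 without LNCaP miR-375 library 2 and -0.15 without LNCaP control library 2. With all libraries and no low-count filter the same 3 were also smaller: HNRNPA2B1 -0.19, SF3B1 -0.17 and HNRNPU -0.15. The smaller values are therefore not shown to come from the library left out.

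The 4 lasting positive differences were genes that fell more in PC3, or rose in LNCaP. HNRNPM had the largest, 0.42 ± 0.049 (edgeR adjusted p = 1.07e-08), then HNRNPLL at 0.41 ± 0.085 (0.000249), SRSF3 at 0.26 ± 0.048 (6.97e-05) and HNRNPL at 0.22 ± 0.055 (0.00171). HNRNPL and its relative HNRNPLL share the sign of the difference, although HNRNPL fell in LNCaP and HNRNPLL rose there. SRSF1, SRSF2 and SRSF7, the SR genes with the largest falls in LNCaP, had differences of -0.17 ± 0.060, -0.078 ± 0.058 and -0.038 ± 0.058, of which that of SRSF1 was called (edgeR adjusted p = 0.0297). That call of SRSF1 ended with DESeq2 (adjusted p = 0.192), halved counts (edgeR adjusted p = 0.265), no low-count filter (0.658) and total-count scaling (log2 -0.13, edgeR adjusted p = 0.127). It also ended without LNCaP miR-375 library 1, LNCaP miR-375 library 2, LNCaP control library 1, LNCaP control library 2, PC3 miR-375 library 1, PC3 miR-375 library 2 or PC3 control library 2 (log2 from -0.082 to -0.17, edgeR adjusted p from 0.0928 to 0.465).

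The other 9 called differences were lost under at least 1 setting. HNRNPA0 (-0.18 ± 0.051) lost its call without LNCaP miR-375 library 1, LNCaP miR-375 library 2, LNCaP control library 1, LNCaP control library 2 or PC3 miR-375 library 1 (log2 from -0.079 to -0.14, edgeR adjusted p from 0.0777 to 0.382). HNRNPA3 (-0.22 ± 0.047) lost it without LNCaP control library 2 (log2 -0.13, edgeR adjusted p = 0.0568) and with no low-count filter (log2 -0.13, edgeR adjusted p = 0.106). SF3B2 (-0.15 ± 0.049) lost it without any of the 8 libraries (log2 from -0.041 to -0.15, edgeR adjusted p from 0.0600 to 0.679). SF3B3 (-0.19 ± 0.057) lost it without LNCaP miR-375 library 1 (log2 -0.068, edgeR adjusted p = 0.504), LNCaP control library 2 (log2 -0.055, edgeR adjusted p = 0.593) or PC3 control library 1 (log2 -0.16, edgeR adjusted p = 0.0719). SRSF11 (-0.19 ± 0.067) lost it without LNCaP miR-375 library 1, LNCaP control library 1, LNCaP control library 2, PC3 miR-375 library 1, PC3 miR-375 library 2, PC3 control library 1 or PC3 control library 2 (log2 from -0.044 to -0.20, edgeR adjusted p from 0.0578 to 0.757), and SRSF5 (-0.24 ± 0.055) without LNCaP control library 1 (log2 -0.13, edgeR adjusted p = 0.110) or PC3 control library 2 (log2 -0.16, edgeR adjusted p = 0.0541), or with no low-count filter (log2 -0.14, edgeR adjusted p = 0.0755). Total-count scaling also ended the negative calls of HNRNPA0, SF3B2, SF3B3 and SRSF11 (edgeR adjusted p from 0.0540 to 0.134). So did DESeq2 (adjusted p from 0.0662 to 0.201), halved counts (edgeR adjusted p from 0.113 to 0.337) and no low-count filter (edgeR adjusted p from 0.418 to 0.826), and limma-voom ended that of SRSF11 (adjusted p = 0.0501). Among the positive ones HNRNPD (0.21 ± 0.056) lost its call without PC3 control library 2 (log2 0.15, edgeR adjusted p = 0.0661) and was 0.32 without LNCaP control library 1. HNRNPK (0.15 ± 0.046) lost it without PC3 control library 2 (log2 0.14, edgeR adjusted p = 0.0770) and was 0.25 without LNCaP miR-375 library 2 and 0.24 without LNCaP control library 2. HNRNPDL (0.15 ± 0.055) lost it without PC3 miR-375 library 1 (log2 0.12, edgeR adjusted p = 0.193), PC3 control library 1 (log2 0.15, edgeR adjusted p = 0.108) or PC3 control library 2 (log2 0.17, edgeR adjusted p = 0.0533) and with the replicate number as a block (log2 0.15, edgeR adjusted p = 0.0673), and was 0.27 without LNCaP miR-375 library 1 and 0.25 without LNCaP control library 1. These genes fell in at least 1 line all the same, except SF3B2, which fell in neither. The only fall of SRSF5, that in LNCaP, was itself lost with total-count scaling (log2 -0.031) and with no low-count filter (log2 -0.087).

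**Figure D3:**
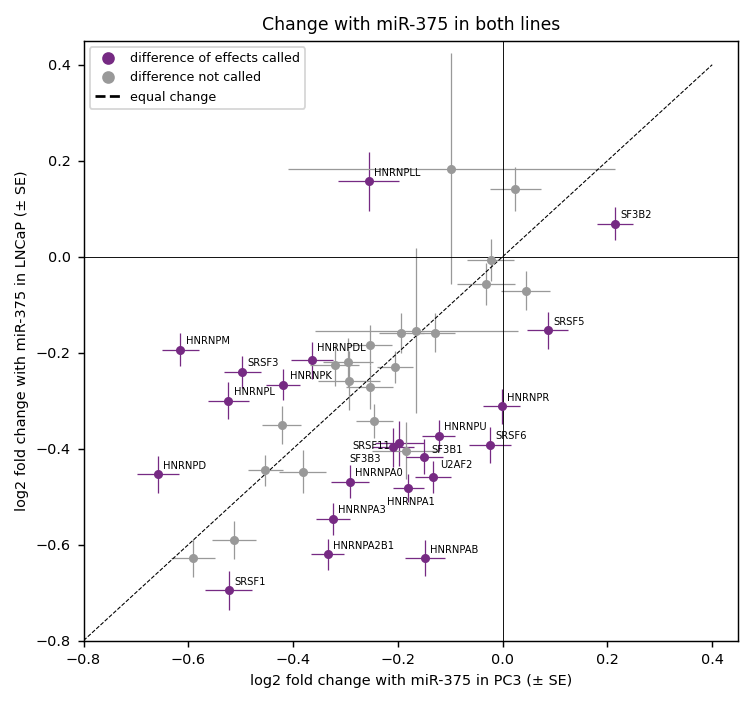
Log2 fold change with miR-375 in LNCaP (vertical axis) against that in PC3 (horizontal axis), each with ± SE, for the tested splicing factor genes except HNRNPCL1. Purple, named points are the 22 genes whose difference of effects was called; points under the dashed line had the lower change in LNCaP, such as HNRNPAB and SRSF6, and points above it had the lower change in PC3, such as HNRNPM and SRSF3.

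Without miR-375 the lines already differed in these genes. In the controls 34 members were higher and 7 lower in LNCaP than in PC3, where 41.2% of all tested genes were higher and 39.2% lower. The median log2 difference, LNCaP control over PC3 control, was 0.61 over the members and 0.069 over all tested genes. By at least 2-fold 15 of the 44 members differed, called or not, with HNRNPCL1 among them although it was not called. Of all tested genes 56.0% were called and differed by at least 2-fold, so the rules of these figures are not quite alike. SRSF8 differed most, with 248 and 256 CPM in the LNCaP controls, against 37.0 and 34.2 CPM in the PC3 controls, a log2 difference of 2.83 ± 0.050. SRSF6 had 391 and 380.3 CPM in the LNCaP controls, against 103 and 99.5 CPM in the PC3 controls, a difference of 1.93 ± 0.039. SRSF3 had 799 and 802 CPM in the LNCaP controls, against 259 and 254 CPM in the PC3 controls, a difference of 1.64 ± 0.035. Of the SR genes 8 of 11 were higher in LNCaP, and SRSF1 (1.48), SRSF2 (1.55) and SRSF7 (1.42), which fell most with miR-375 in LNCaP, were among them.

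Outside the SR family SF3B5 had 194 and 189.9 CPM in the LNCaP controls, against 61.1 and 61.9 CPM in the PC3 controls, a log2 difference of 1.64 ± 0.044, and HNRNPA0 and HNRNPA1 differed by 1.59 ± 0.037 and 1.52 ± 0.030. U2AF1 differed by 1.95 ± 0.28, but by 0.72 once summed with U2AF1L5 (edgeR adjusted p = 0.00465), so most of its difference depended on how the copies were counted. The genes higher in PC3 were fewer. SRSF4 had 70.9 and 68.5 CPM in the LNCaP controls, against 115 and 114 CPM in the PC3 controls, a log2 difference of -0.72 ± 0.049. SF3B1 had 281 and 294 CPM in the LNCaP controls, against 454 and 457 CPM in the PC3 controls, a difference of -0.66 ± 0.035. HNRNPLL had 41.9 and 44.0 CPM in the LNCaP controls, against 64.9 and 63.3 CPM in the PC3 controls, a difference of -0.58 ± 0.061, and HNRNPUL1 had 184 and 188 CPM in the LNCaP controls, against 269 and 269 CPM in the PC3 controls, a difference of -0.53 ± 0.038. These controls also enter the miR-375 comparisons above, so the values are given side by side only.

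HNRNPH3, HNRNPA2B1 and HNRNPUL2 were the other genes higher in PC3, with log2 differences of -0.32, -0.22 and -0.13. SRSF9 and SRSF11 did not pass, at 0.031 ± 0.040 and 0.061 ± 0.047, nor did HNRNPCL1 with its few counts. Of the 41 calls 32 of those higher and 6 of those lower in LNCaP held in all settings. HNRNPUL2 lost its call without LNCaP control library 1, PC3 miR-375 library 1, PC3 miR-375 library 2, PC3 control library 1 or PC3 control library 2 (log2 from -0.11 to -0.13, edgeR adjusted p from 0.0608 to 0.180) and with total-count scaling (log2 -0.10, edgeR adjusted p = 0.112), and was -0.23 without LNCaP control library 2. HNRNPR (0.079 ± 0.036) lost its call without LNCaP miR-375 library 1, LNCaP miR-375 library 2, LNCaP control library 1, LNCaP control library 2, PC3 control library 1 or PC3 control library 2 (log2 from 0.034 to 0.092, edgeR adjusted p from 0.0833 to 0.479). That call of HNRNPR also ended with DESeq2 (adjusted p = 0.290), halved counts (edgeR adjusted p = 0.172), a fit of the 2 control groups alone (0.265), no low-count filter (0.511) and the replicate number as a block (0.0549). SF3A3 (0.11 ± 0.045) lost it without LNCaP miR-375 library 1, LNCaP miR-375 library 2, LNCaP control library 1, LNCaP control library 2 or PC3 control library 2 (log2 from 0.050 to 0.11, edgeR adjusted p from 0.0780 to 0.414). That of SF3A3 ended as well with DESeq2 (adjusted p = 0.178), halved counts (edgeR adjusted p = 0.0552), the 2 control groups alone (0.0950) and no low-count filter (0.237). The miR-375 libraries are not compared here, so their removal acted on these genes only through the shared fit and its scaling.

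**Figure D4:**
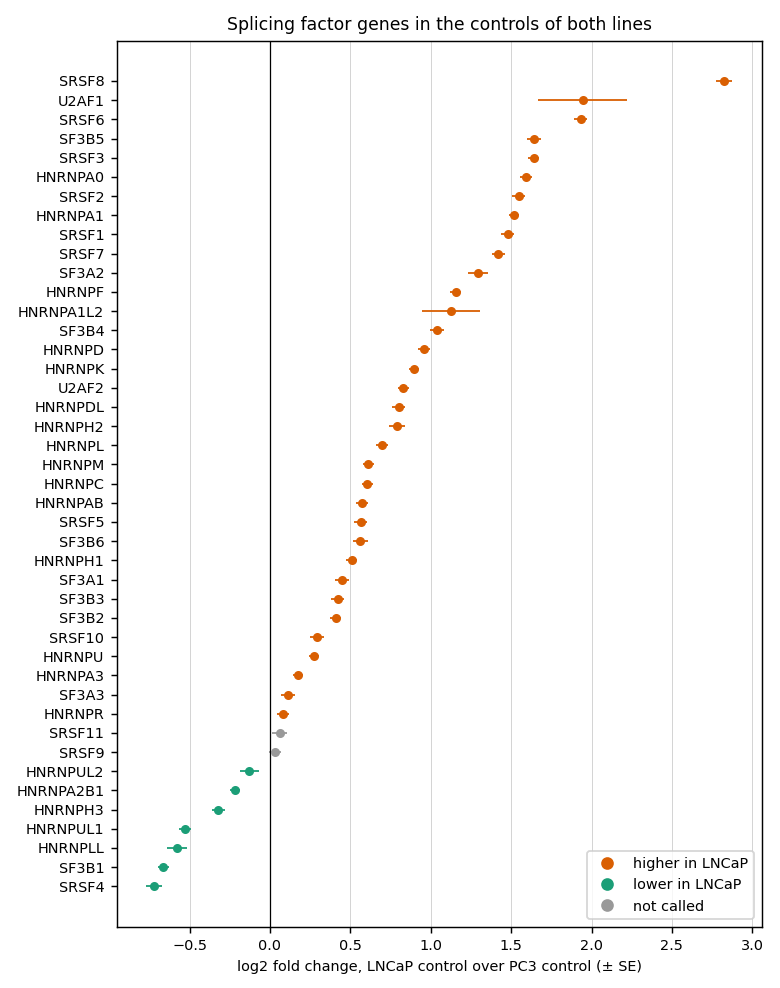
Log2 fold change of LNCaP control over PC3 control (horizontal axis, bars are ± SE) for the tested splicing factor genes except HNRNPCL1, ordered by value. Orange points are higher in LNCaP, green points lower and grey points not called; SRSF8 stands at 2.83 at the top and SRSF4 at -0.72 at the bottom.

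Levels can be compared between genes only per length, here as TPM over the exons of GENCODE 29. The length is that of all annotated exons of a gene together, not of the transcripts made in these cells. It ran from 693 bases for SF3B5 to 22512 for HNRNPU, so the order of genes depends in part on the annotation. HNRNPA1 ranked highest in all 4 groups, with 1217 ± 15.6 TPM in LNCaP with miR-375, 1595 ± 10.3 TPM in LNCaP controls, 555 ± 3.04 TPM in PC3 with miR-375 and 595 ± 2.43 TPM in PC3 controls (mean ± SD, n = 2 each). In the LNCaP controls SF3B5 (972 ± 1.29 TPM), HNRNPF (861 ± 0.501 TPM) and HNRNPK (783 ± 20.7 TPM) came next, beyond the SD of their neighbours. U2AF2 (581 ± 2.94 TPM) and HNRNPAB (579 ± 8.60 TPM) did not differ beyond their spread there. In the PC3 controls the order was HNRNPA1, HNRNPA2B1 (531 ± 2.45 TPM), HNRNPK (449.6 ± 16.7 TPM), HNRNPAB (415 ± 8.40 TPM) and HNRNPF (413 ± 9.59 TPM), of which HNRNPAB and HNRNPF were within their spread. SRSF2 was the SR gene with the highest TPM in the LNCaP controls (412 ± 6.63 TPM) and SRSF9 in the PC3 controls (174 ± 3.59 TPM). In the LNCaP controls SRSF3 followed at 394 ± 6.95 TPM. Its exons span 7118 bases and those of SRSF2 3017, so their order could change with the length used. At the low end of the genes with more than a few counts, U2AF1 aside, HNRNPA1L2, HNRNPLL and SRSF4 came last in the LNCaP controls. There SRSF4 and HNRNPLL stood at 27.5 ± 0.254 TPM and 25.4 ± 1.25 TPM. The copies HNRNPCL1 to HNRNPCL4, SRSF12 and U2AF1 were under 2 TPM in every library. U2AF1 still had 133 to 173 counts in the LNCaP libraries. Its TPM is not read as a level, since reads can be shared with U2AF1L5.

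The other genes of the splicing pathway were counted by list, and the counts differed between lists. Over 10 lists holding 152 genes, 7 rose and 85 fell of 148 tested in LNCaP, and 10 rose and 77 fell in PC3, with median log2 changes of -0.21 in LNCaP and -0.13 in PC3; over all tested genes the shares were 13.9% rising and 18.7% falling in LNCaP, and 22.2% rising and 20.8% falling in PC3. In these lists a number in brackets is the log2 change, and each gene named was the one of its list that changed most in its direction, among those averaging at least 5 CPM. Of 12 U1, U2 and Sm proteins 10 fell in LNCaP and 9 in PC3. SNRPA1, a U2 protein, had 40.9 and 40.0 CPM in LNCaP with miR-375, against 91.3 and 91.5 CPM in LNCaP controls, a change of -1.18, larger than any SRSF, HNRNP or SF3 gene showed there, and SNRPE, a Sm ring protein, had 46.9 and 43.2 CPM in PC3 with miR-375, against 73.3 and 69.0 CPM in PC3 controls, a change of -0.66. Of 15 tri-snRNP proteins 9 fell in LNCaP, and 12 fell and 1 rose in PC3. EFTUD2, a GTPase of the U5 particle, had 90.8 and 89.4 CPM in LNCaP with miR-375, against 179 and 185 CPM in LNCaP controls. In PC3 EFTUD2 had 163 and 161 CPM with miR-375, against 350.3 and 345 CPM in controls. For EFTUD2 the log2 change was -1.02 in LNCaP and -1.10 in PC3 (edgeR adjusted p = 3.18e-21 and 1.40e-23). TXNL4A, a small U5 protein, was the one that rose in PC3 (0.14).

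Of 15 U2-associated factors 10 fell in LNCaP and 7 in PC3, led by the helicase gene DDX39B in LNCaP (-0.50) and by SMNDC1 in PC3 (-0.61). Among 23 genes of the PRPF19 complex and the catalytic steps 6 fell and 1 rose in LNCaP and 8 fell in PC3, with DHX15, a helicase that takes spliceosomes apart, falling most (-0.50 in LNCaP and -0.73 in PC3) and the helicase gene DHX16 rising in LNCaP (0.19). Among 9 genes of the exon junction complex and its ASAP and PSAP partners 6 fell and 1 rose in each line: PNN fell (-0.67 in LNCaP and -0.63 in PC3), and SAP18 rose (0.16 in LNCaP and 0.30 in PC3). Of 16 SR-related genes 13 fell in LNCaP and 8 in PC3, with the largest fall in SREK1 in LNCaP (-0.60) and in LUC7L2, a U1 partner, in PC3 (-0.67); for 9 of the 16 the difference between lines was negative and for 1 positive.

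Of the 12 kinases and importins of SR proteins 7 fell and 2 rose in LNCaP, and 7 fell and 1 rose in PC3. SRPK1, the cytoplasmic SR protein kinase, had 92.8 and 94.0 CPM in PC3 with miR-375, against 135 and 134 CPM in PC3 controls, a log2 change of -0.53 in PC3. TNPO3, the importin that carries SR proteins, fell (-0.73) in LNCaP, the kinase gene CLK3 rose there (0.31), and the importin gene TNPO2 rose in PC3 (0.20). Of 11 hnRNP proteins with other symbols 9 fell in each line, most of all TARDBP in LNCaP (-0.55) and KHSRP in PC3 (-0.47). Among 23 tested regulators of alternative splicing outside these families 10 fell and 2 rose in LNCaP, and 9 fell and 3 rose in PC3. RBM24, a muscle splicing regulator, had 16.7 and 14.3 CPM in LNCaP with miR-375, against 53.2 and 59.1 CPM in LNCaP controls (-1.86), and QKI, a regulator of epithelial and mesenchymal splicing, had 65.3 and 73.4 CPM in PC3 with miR-375, against 219 and 232 CPM in PC3 controls (-1.70). RBFOX2 rose (0.44) in LNCaP and RBM47 (1.03) in PC3. Among 12 factors of nonsense-mediated decay, the pathway that many SR and hnRNP genes use to limit their own transcripts, 5 fell and 1 rose in LNCaP, and 2 fell and 4 rose in PC3, where their median was 0.037. UPF1 fell (-0.38) in LNCaP, while SMG9 fell (-0.48) and DHX34 rose (0.26) in PC3.

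Promoter letters were looked up because the members moved together. In RefSeq promoters (GRCh38.p14), the 250 bases before each listed start of a gene, 44 of the 48 genes were matched, all but HNRNPA1, HNRNPCL3, SF3B3 and SRSF2. The 44 had 59 windows, and a gene counted where any of its windows held the letters. Genes with several starts thus had more chances of a match. CACGTG, the E-box letters that MYC and its partners can bind, a palindrome that reads the same on both strands, lay in 7 of 44 (15.9%) and in 7.73% of 27305 genes. CCGGAAG, letters that ETS factors can bind, on either strand, lay in 12 of 44 (27.3%) and in 10.2% of the 27305. These 27305 are all genes with a RefSeq promoter and were not limited to the genes tested here. The shares are therefore of unlike sets, and those over the tested genes were not counted. The letters were chosen after the falls were known. Windows of the 3 genes with CACGTG that fell most over both lines are shown, with the match in capitals and up to 40 bases on either side. The HNRNPD and HNRNPM windows end before that at the RefSeq start, and the HNRNPA3 window stops short of it, since 65 bases lie between its match and the start.
HNRNPD: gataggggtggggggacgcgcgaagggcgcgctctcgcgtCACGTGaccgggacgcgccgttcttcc
HNRNPA3: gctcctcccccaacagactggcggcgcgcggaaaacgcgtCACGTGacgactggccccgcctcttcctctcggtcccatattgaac
HNRNPM: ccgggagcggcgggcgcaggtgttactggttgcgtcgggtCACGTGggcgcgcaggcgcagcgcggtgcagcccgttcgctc
The HNRNPD window is chr4:82373992-82374058 on the minus strand, the HNRNPA3 window chr2:177212683-177212768 on the plus strand and the HNRNPM window chr19:8444893-8444974 on the plus strand. RefSeq and GENCODE 29 start these 3 genes at different bases, so that all 3 windows lie inside the GENCODE 29 spans of the genes. That of HNRNPA3 is chr2:177212563-177223958. The other genes with CACGTG were HNRNPDL, HNRNPH3 and SF3B1, which fell in both lines, and HNRNPH2, which rose in LNCaP. A match of letters is no evidence that a factor binds.

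Some counts could be shared with genes that lie on the same stretch. In GENCODE 29, exons of other genes covered 60.7% of the exon bases of SRSF1, 46.2% of SRSF9 (with GATC), 44.1% of HNRNPUL2 (with its readthrough gene) and 36.7% of SRSF2 (mostly with MFSD11). For SRSF1 (56.6% of exon bases) and HNRNPUL2 (44.1%) the shared bases lie mostly on the same strand, where no strand setting parts the genes. For SRSF2 only 3.28% of exon bases are shared on the same strand and for SRSF9 none are, so there the strand setting of the counting, which the labels do not state, decides. For the other 44 genes the share was under 20%, and for 27 it was 0. The values of these 4 genes are uncertain to that extent.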

How the data were processed

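Total RNA from 2 cell lines was made into stranded poly(A) libraries and read as 150-base pairs, per the labels' protocols. The authors deposited 1 table of raw counts per gene; fastp, STAR 2.7.1a, featureCounts, DESeq2 and the build hg38 are named in the submitters' processing notes, while annotation, strand setting and the counting of reads or pairs are not stated there. Of counts from 1 to 20, 68.1% to 70.3% were even in each library, so a count may not be 1 molecule.

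Of 60625 gene lines 3 broken ones, with 279 counts, were left out. The counts of all 4 groups were fitted in edgeR 4.0.16 (R 4.3.3) with filterByExpr, TMM and the robust quasi-likelihood test, with 4 residual degrees of freedom. The p-values were Benjamini-Hochberg adjusted over 21066 genes, of which 44 are splicing factors. Alternatives were DESeq2 1.42.0, limma-voom (limma 3.58.1), total-count scaling, no filter, halved counts, each comparison's groups alone, the replicate number as a block, U2AF1 summed with its copy, and each library left out. With 3 counts as the limit that a count of 0 allows, the floor was 0.0712 to 0.0906 CPM, for counting error only. Named with values were members called in both lines or in the difference, the largest changes, the 4 highest of each control and the member with the most CPM of each family. The members and gene lists were chosen with earlier results of these data known. The model was also run on simulated counts drawn with the spread estimated from these libraries. That run cannot show whether the spread itself is right.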

Additional observations from a re-analysis of the deposited data

Results flagged for a closer look

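The 22 genes whose response to miR-375 differed between the lines are gathered here because the test of that difference itself, edgeR's quasi-likelihood test of the LNCaP change minus the PC3 change, passed for each. The values are log2 differences. They were negative, so that LNCaP stood lower with miR-375 relative to its controls than PC3 did, for HNRNPAB (-0.48), SRSF6 (-0.37), U2AF2 (-0.33), HNRNPR (-0.31), HNRNPA1 (-0.30), HNRNPA2B1 (-0.29), SF3B1 (-0.27), HNRNPU (-0.25), SRSF5 (-0.24), HNRNPA3 (-0.22), SRSF11 (-0.19), SF3B3 (-0.19), HNRNPA0 (-0.18), SRSF1 (-0.17) and SF3B2 (-0.15). They were positive for HNRNPM (0.42), HNRNPLL (0.41), SRSF3 (0.26), HNRNPL (0.22), HNRNPD (0.21), HNRNPK (0.15) and HNRNPDL (0.15). SR genes, hnRNP genes, SF3B genes and U2AF2 are among the negative ones, and hnRNP genes with SRSF3 make up the positive ones. Those of HNRNPAB, SRSF6, U2AF2, HNRNPR, HNRNPA1, HNRNPA2B1, SF3B1, HNRNPU, HNRNPM, HNRNPLL, SRSF3 and HNRNPL were called in every setting tried, and the others in only part of them. With 2 libraries in each group, single libraries could not be tested for standing apart.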

How the results depend on the processing

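No result changed direction among those called in any of the alternatives run, and most counts stayed within 1.5 times. In LNCaP the members that rose numbered 2, against 4 with total-count scaling, 1 with the replicate number as a block and 0 to 3 when a library was left out, while those that fell numbered 30 to 35 without a library. In PC3 the members that rose numbered 1, against 3 with total-count scaling and 1 to 2 without a library, and those that fell 32 to 34 without a library. Called differences between the lines were 4 to 9 positive and 9 to 12 negative without a library, and 8 negative without the low-count filter. In the controls 32 to 34 members were higher and 6 to 7 lower in LNCaP without a library. The median difference between lines was -0.027 and 0.019 with total-count scaling, 0.027 with DESeq2 and 0.072 without the filter, so its sign carries no weight. The cause was not tested.

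The replicate numbers gave no sign of pairing. Over the tested genes, deviations of same-numbered libraries from their group means correlated at 0.0181 in LNCaP and 0.0101 in PC3. With 2 libraries a group, library 2 only mirrors library 1, so this cannot tell whether the libraries were paired. With the replicate number as a block 1 member rose and 35 fell in LNCaP, 1 rose and 34 fell in PC3, 6 differences were positive and 15 negative, and 33 members were higher and 7 lower in the LNCaP controls. The block ended the calls of HNRNPLL in LNCaP, HNRNPDL between the lines and HNRNPR in the controls.

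Of the 35 falls in LNCaP 26 held in all settings, and of the 34 in PC3 27 did. With 2 libraries a group the spread is poorly known, and calls of small changes near the threshold depend on the scaling. Leaving out a library leaves its group with 1, assumed to vary like the others, and also changes the scaling.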
